A study of Mus musculus with 8 samples.

Results

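The mitochondrial genome of the mouse encodes 7 subunits of respiratory complex I, the NADH dehydrogenase through which electrons enter the respiratory chain, in the genes mt-Nd1, mt-Nd2, mt-Nd3, mt-Nd4, mt-Nd4l, mt-Nd5 and mt-Nd6. All 7 were found by their Ensembl transcript identifiers in the deposited expression table, among 18137 annotated genes in all. Each has 1 transcript in the GENCODE M21 annotation of build mm10, so that its value is that of a single row. RNA came from heart tissue of wild-type mice (genotype given as WT), with 4 sedentary and 4 swimming libraries, and the title of the series describes the hearts as aging. The labels name no agent or altered allele in either group. Strain, sex, age and training schedule are missing from the labels used here. Biological replicates are numbered 1 to 4 in each group without a statement that each came from a separate mouse, so p-values measure the spread between these samples, which may be technical.

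Complex I is assembled from subunits made in the mitochondrion and a larger number made from nuclear genes. The mitochondrially encoded subunits form the core of its membrane arm, where proton pumping takes place. Heart muscle is dense in mitochondria, and mitochondrial mRNAs are among the most abundant transcripts of the heart. They are transcribed as long precursors from both strands of a circular genome and cut at the tRNAs that lie between many of the coding regions. Most of the mRNAs, among them those of the other members, come from transcription of the heavy strand, and mt-Nd6 is the 1 mRNA that comes from the light strand.

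The coding regions differ in length from 297 bases (mt-Nd4l) to 1824 bases (mt-Nd5). In genome order mt-Nd1 lies at chrM:2751-3707, mt-Nd2 at chrM:3914-4951, mt-Nd3 at chrM:9459-9806, mt-Nd4l at chrM:9877-10173, mt-Nd4 at chrM:10167-11544 and mt-Nd5 at chrM:11742-13565, all on the plus strand of mm10. mt-Nd6 lies at chrM:13552-14070 on the minus strand. The annotated transcripts begin at the start codon, and 3 of the 7 open with ATG. The first 30 bases of each, from the GENCODE M21 transcripts (build mm10, in the orientation of the mRNA), are shown because they carry the start codons, in capitals.
mt-Nd1: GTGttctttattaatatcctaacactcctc
mt-Nd2: ATAaatcctatcacccttgccatcatctac
mt-Nd3: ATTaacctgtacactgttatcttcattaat
mt-Nd4l: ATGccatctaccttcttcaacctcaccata
mt-Nd4: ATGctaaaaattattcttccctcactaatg
mt-Nd5: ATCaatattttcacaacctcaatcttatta
mt-Nd6: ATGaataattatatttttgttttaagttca
mt-Nd1 opens with GTG, mt-Nd2 with ATA, mt-Nd3 with ATT and mt-Nd5 with ATC, start codons that the mitochondrial genetic code of vertebrates allows. mt-Nd4 ends on a single T, and such incomplete stop codons are completed by the poly(A) tail.

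Base composition separated mt-Nd6 from the other members. G made up 28.1% of mt-Nd6 and C 5.97%. In the other 6 genes G made up 8.00% (mt-Nd2) to 11.6% (mt-Nd1), and C 22.1% (mt-Nd3) to 29.97% (mt-Nd4l). Of the members 4 overlap a neighbour. mt-Nd4l and mt-Nd4 share 7 bases, at chrM:10167-10173, in different reading frames of the same strand. mt-Nd5 and mt-Nd6 share 14 bases, at chrM:13552-13565, on opposite strands. The sequences around both overlaps are shown because reads across them overlap both genes in position. Shared bases are in capitals, and each sequence is in the orientation of its own mRNA.
mt-Nd4l: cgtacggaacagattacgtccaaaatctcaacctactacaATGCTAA
mt-Nd4: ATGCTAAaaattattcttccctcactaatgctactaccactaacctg
mt-Nd5: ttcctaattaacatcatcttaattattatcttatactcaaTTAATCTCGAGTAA
mt-Nd6: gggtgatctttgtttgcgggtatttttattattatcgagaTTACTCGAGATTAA

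Parts of the mitochondrial genome are also present in nuclear chromosomes as pseudogenes, and reads that match both places cannot be placed by sequence alone. Each member was therefore cut into all its words of 31 bases, and these were looked up in every other transcript of the annotation, on both strands. For mt-Nd1 0.0% of its words were found elsewhere, for mt-Nd6 7.36%, for mt-Nd2 13.5% and for mt-Nd5 16.8%. For mt-Nd4 62.8% were found, for mt-Nd3 98.1% and for mt-Nd4l 98.9%. The copies of the last 3 genes lie side by side on chromosome 1. They are the pseudogenes Gm28439 (chr1:24611535-24612410), Gm10222 (chr1:24612407-24612700) and Gm28438 (chr1:24612775-24613119), all on the minus strand. All 876 aligned bases of mt-Nd4, all 294 of mt-Nd4l and all 342 of mt-Nd3 were identical in the copy. With words of 50 bases the shares were 62.2%, 98.8% and 97.99%, and mt-Nd6 had 0.0%. The sequence of mt-Nd4l is shown whole, and that of mt-Nd3 over its first 300 bases (chrM:9459-9758), because the values of these 2 members differed most between libraries. Capitals mark bases outside the aligned nuclear copy, and all bases in lower case are the same in the copy.
mt-Nd4l: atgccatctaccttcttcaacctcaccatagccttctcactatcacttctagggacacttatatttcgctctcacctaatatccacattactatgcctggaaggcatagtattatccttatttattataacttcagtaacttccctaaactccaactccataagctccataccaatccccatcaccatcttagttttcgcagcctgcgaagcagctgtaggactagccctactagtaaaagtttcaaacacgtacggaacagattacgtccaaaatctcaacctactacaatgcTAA
mt-Nd3: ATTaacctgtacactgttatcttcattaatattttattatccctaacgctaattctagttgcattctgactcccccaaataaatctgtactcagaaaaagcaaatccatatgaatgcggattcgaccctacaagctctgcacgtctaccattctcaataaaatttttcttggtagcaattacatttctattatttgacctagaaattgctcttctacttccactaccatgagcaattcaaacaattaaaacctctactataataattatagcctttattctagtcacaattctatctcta
The pseudogenes named here have no rows in the deposited table, so their values could not be analysed. The labels do not say whether the libraries were stranded.

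The 8 libraries had FPKM totals (FPKM is a fragment count scaled by transcript length and library size, here summed over all rows) between 210413 and 235461. Absolute depth is unknown. Depth relative to the geometric mean of the libraries, inferred from the smallest values, was 1.64 in swimming replicate 2 and between 0.871 and 1.00 in the other 7. Markers of ventricular heart muscle were high in every library, with a summed level of 8 genes between 4024 and 5049 FPKM. The 5 liver markers summed to 41.4 FPKM and the 5 adipocyte markers to 17.5 FPKM in sedentary replicate 4, against at most 0.579 and 0.824 FPKM in the other libraries. The 5 macrophage markers summed to 39.4 to 55.8 FPKM in sedentary and 58.9 to 67.5 FPKM in swimming libraries. Of the lists of cell type markers, only this one had sums that did not overlap between the groups. Among single genes tested, 3.24% had every swimming library above every sedentary one. The 5 atrial markers summed to 27.2 to 105.8 FPKM in sedentary and 66.4 to 125.6 FPKM in swimming libraries. The part of these cells in the values of the mt-Nd genes was not tested. The 13 mitochondrial mRNAs held 20.0% ± 0.724 of the library total in sedentary and 16.7% ± 2.35 in swimming hearts (SD, n = 4 per group). Much of this was mt-Co1, a subunit gene of cytochrome oxidase, at 13.4% to 13.7% of the total in sedentary libraries. In swimming replicates 1 to 4 it held 12.6%, 5.99%, 9.16% and 12.5%, all below the sedentary ones. Its swimming FPKM values were also all below the sedentary ones, which held for 1.58% of all genes tested. In tissue samples, fewer cells of a type and less RNA per cell cannot be told apart.

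The 7 genes fell into 2 sets by their listed level. mt-Nd1, mt-Nd2 and mt-Nd5 were at 612.1 FPKM or more in all 8 libraries, and mt-Nd3 was at 1318 FPKM or more in 7 of them. mt-Nd4 and mt-Nd6 were at 0.195 FPKM or less in all 8 libraries, and mt-Nd4l was at 0.164 FPKM or less in 7 of them. Among the levels, mt-Nd1 was the highest member in every library (mean over 8 libraries 2837 FPKM), without overlap with any other member. mt-Nd3 (mean 1493 FPKM) and mt-Nd2 (mean 1437 FPKM) overlapped each other. mt-Nd5 followed with a mean of 704.5 FPKM, below every value of mt-Nd2. FPKM is scaled by length, but the level of mt-Nd3 also depends on how reads shared with its nuclear copy were assigned, so its place in this order is uncertain.

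**Figure D1:**
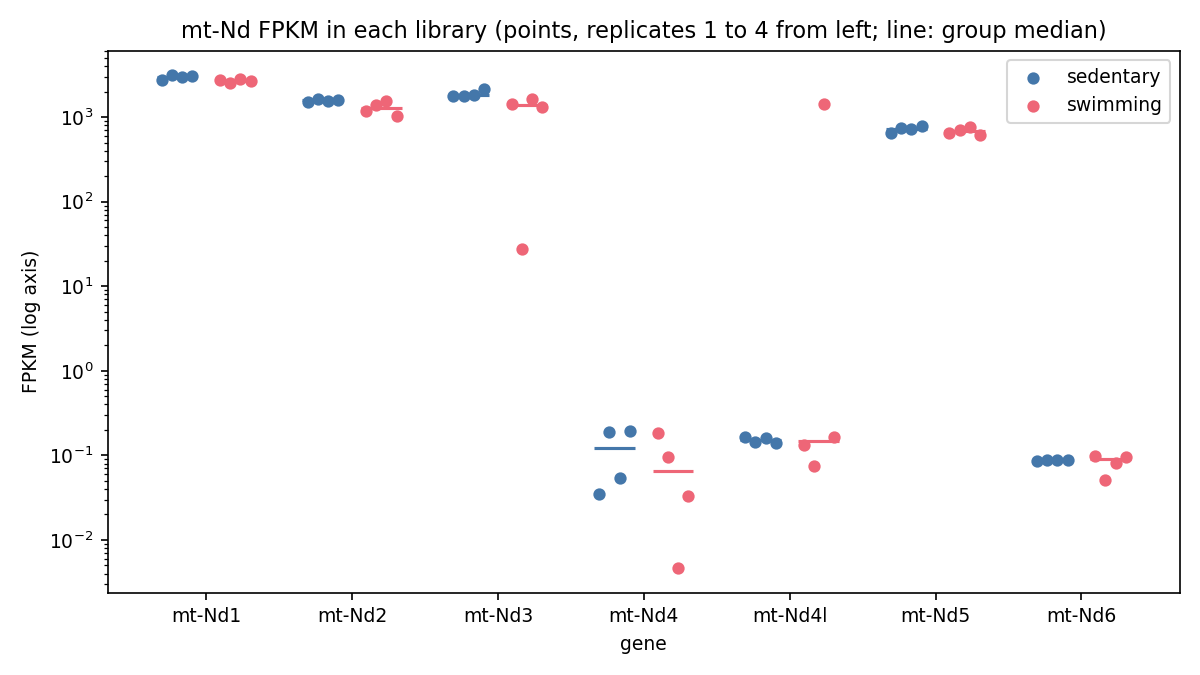
FPKM (log axis) of each of the 7 genes in 4 sedentary and 4 swimming libraries, with a line at the group median. mt-Nd1, mt-Nd2 and mt-Nd5 stay at 612.1 FPKM or more, mt-Nd4 and mt-Nd6 at 0.195 FPKM or less, and single swimming libraries stand apart for mt-Nd3 (27.2 FPKM) and mt-Nd4l (1443 FPKM).

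The question of the study is how cardiac RNA differs between swimming and sedentary mice. No mt-Nd gene passed the test between the groups. Of the 7, 5 reached the mean of 0.5 FPKM needed for testing, and 0 of these 5 were called at an adjusted p below 0.05 (limma on log2(FPKM + 0.5), Benjamini-Hochberg over 11674 genes), beside 0.0171% of all genes tested (0.0171% higher and 0.0% lower in swimming). At an unadjusted p below 0.05, 1 of the 5 was called, beside 7.37% of all genes tested. That gene had a lower mean in swimming hearts, and 0 members were higher at this threshold, beside 4.93%. For 0 members was every swimming library above every sedentary one, beside 3.24%. The log2 fold changes of mt-Nd1, mt-Nd2, mt-Nd3 and mt-Nd5 were negative (lower in swimming hearts), as were those of 41.3% of all genes tested. mt-Nd4l reached the test only through 1 swimming library. mt-Nd4 and mt-Nd6 were not tested.

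mt-Nd1 encodes the subunit at the junction of the membrane arm with the peripheral arm, close to where ubiquinone binds. It was listed at 2761, 3118, 2965 and 3075 FPKM in sedentary replicates 1 to 4 and at 2735, 2561, 2794 and 2684 FPKM in swimming replicates 1 to 4. In 3 of the 4 swimming libraries the level was below every sedentary one, and swimming replicate 3 lay above sedentary replicate 1. The group means were 2980 ± 159.2 and 2693 ± 98.8 FPKM (SD, n = 4 per group). The log2 fold change was -0.14 (SE 0.0648, 95% interval -0.29 to 0.01, limma adjusted p = 0.674). Here and below, the 95% intervals are for single genes and, unlike the adjusted p, are not adjusted over the 11674 genes. As a share of the library total mt-Nd1 held 1.22%, 1.36%, 1.26% and 1.32% in the sedentary and 1.19%, 1.22%, 1.27% and 1.17% in the swimming libraries. With the columns rescaled to 1 total over the annotated genes the log2 fold change was -0.08 (limma adjusted p = 0.622). The median of all genes tested was 0.08 with this rescaling and 0.03 without it.

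mt-Nd2 encodes a subunit of the membrane arm that is related to antiporters. Its level was 1510, 1653, 1558 and 1610 FPKM in sedentary replicates 1 to 4 and 1169, 1398, 1568 and 1033 FPKM in swimming replicates 1 to 4. The sedentary values lay close together, and the swimming values ran from well below them to within their range. The means were 1583 ± 62.1 and 1292 ± 237.4 FPKM (SD, n = 4 per group), and the log2 fold change had a 95% interval of -0.60 to -0.02 around -0.31 (SE 0.127, limma adjusted p = 0.665). It was the 1 member with an unadjusted p below 0.05 on the lower side, where 2.43% of all genes tested were found. With 1 swimming library left out at a time, the log2 fold change lay between -0.41 (without replicate 3) and -0.21 (without replicate 4).

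mt-Nd5, the largest member, encodes the subunit at the far end of the membrane arm. Its FPKM values were 648.8, 736.0, 731.1 and 781.4 FPKM in sedentary replicates 1 to 4 and 656.3, 700.8, 769.1 and 612.1 FPKM in swimming replicates 1 to 4. The groups overlapped over most of their range, with means of 724.3 ± 55.2 and 684.6 ± 66.99 FPKM (SD, n = 4 per group). The log2 fold change was -0.08 (95% interval -0.29 to 0.12, limma adjusted p = 0.842).

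mt-Nd3 encodes a small subunit with a loop that lies near the ubiquinone channel. Its level was 1767, 1792, 1830 and 2135 FPKM in sedentary replicates 1 to 4 and 1430, 27.2, 1646 and 1318 FPKM in swimming replicates 1 to 4. Every swimming library was below every sedentary one, which held for 1.58% of all genes tested, and swimming replicate 2 was far below the other 7 libraries. The log2 fold change over all libraries was -1.79 (SE 1.25, 95% interval -4.70 to 1.11, limma adjusted p = 0.768). Without swimming replicate 2 it was -0.36 (unadjusted 95% interval -0.61 to -0.12, limma adjusted p = 0.708). The size of the difference therefore rested on that library. In the same library mt-Co3, whose coding region lies before mt-Nd3 with a tRNA between them, was listed at 870.7 FPKM, against 1.26 to 4.28 FPKM in the other 7. mt-Atp6, which lies before mt-Co3, was at 2730 FPKM there, against 508.6 to 1506 FPKM elsewhere. For mt-Co3 99.9% and for mt-Atp6 99.5% of the 31-base words were also found in another annotated transcript.

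mt-Nd4l, the shortest member, encodes a small membrane subunit and shares its RNA with mt-Nd4. It was listed at 0.163, 0.144, 0.162 and 0.139 FPKM in sedentary replicates 1 to 4, at 0.134, 0.0738 and 0.164 FPKM in swimming replicates 1, 2 and 4, and at 1443 FPKM in swimming replicate 3. In that library mt-Nd4l had 0.516 times the FPKM of mt-Nd1, a level between those of mt-Nd2 and mt-Nd5. The fitted log2 fold change, 2.73 with an SE of 2.45 (limma adjusted p = 0.816), came from this library, and without it mt-Nd4l did not reach the test.

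mt-Nd4, which encodes another antiporter-like subunit, was listed at 0.0353, 0.191, 0.0536 and 0.195 FPKM in sedentary replicates 1 to 4 and at 0.184, 0.0961, 0.00462 and 0.0331 FPKM in swimming replicates 1 to 4. Its lowest value was in swimming replicate 3, the library with mt-Nd4l at 1443 FPKM. mt-Nd6, which encodes a membrane subunit in the bend of the arm, was listed at 0.0857, 0.0884, 0.0886 and 0.0874 FPKM in the sedentary and at 0.0987, 0.0504, 0.0818 and 0.0967 FPKM in the swimming libraries. The sedentary values of mt-Nd6 were nearly equal, and its lowest value was in the library with the greatest depth. Multiplied by relative depth, mt-Nd6 ran from 0.0789 to 0.0929, a range of 1.18 times, where the FPKM values themselves covered 1.96 times. The narrowing was not particular to mt-Nd6. Outside swimming replicate 3, mt-Nd4l ran from 0.0738 to 0.164 FPKM, and from 0.121 to 0.155 when multiplied by relative depth. Relative depth was inferred from 879 to 1110 low genes for each pair of libraries when the mitochondrial genes were left out, and the range of mt-Nd6 was then again 1.18 times. Fitted without the filter on low values, mt-Nd4 and mt-Nd6 had log2 fold changes of -0.09 (limma adjusted p = 0.877) and -0.01 (limma adjusted p = 0.917).

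Complex I cannot be built without the mt-Nd4, mt-Nd4l and mt-Nd6 proteins, and the near-zero values of these genes are given as listed values, not as levels of their RNA. Assembled transcripts, which carry no gene name in the table, held 11.3% to 12.5% of the FPKM total. Whether fragments of these 3 genes were assigned to assembled transcripts, to nuclear copies or to an overlapping neighbour was not tested. The annotated nuclear copies have no rows of their own in the deposited table. The spread of a gene between libraries can be set beside its shared sequence. Among the 7 genes the highest FPKM was 42.1 times the lowest for mt-Nd4, 78.5 times for mt-Nd3 and 19552 times for mt-Nd4l, the 3 members with most of their words in a nuclear copy. It was 1.22 times for mt-Nd1, 1.28 for mt-Nd5, 1.60 for mt-Nd2 and 1.96 for mt-Nd6. The range of mt-Nd4 rests on values of 0.195 FPKM or less. The other mitochondrial mRNAs followed this order only in part. mt-Co3 shared 99.9% of its words and had a spread of 692 times, and mt-Atp8 shared 7.47% and had 1.45 times. The remaining ones did not follow it. mt-Co1 shared 63.9% of its words and had a spread of 2.54 times, mt-Atp6 shared 99.5% and had 5.37 times, mt-Co2 shared all of its words and had 1.61 times, and mt-Cytb shared 6.55% and had a spread of 8.51 times. mt-Nd6 was near 0 with few shared words.

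**Figure D2:**
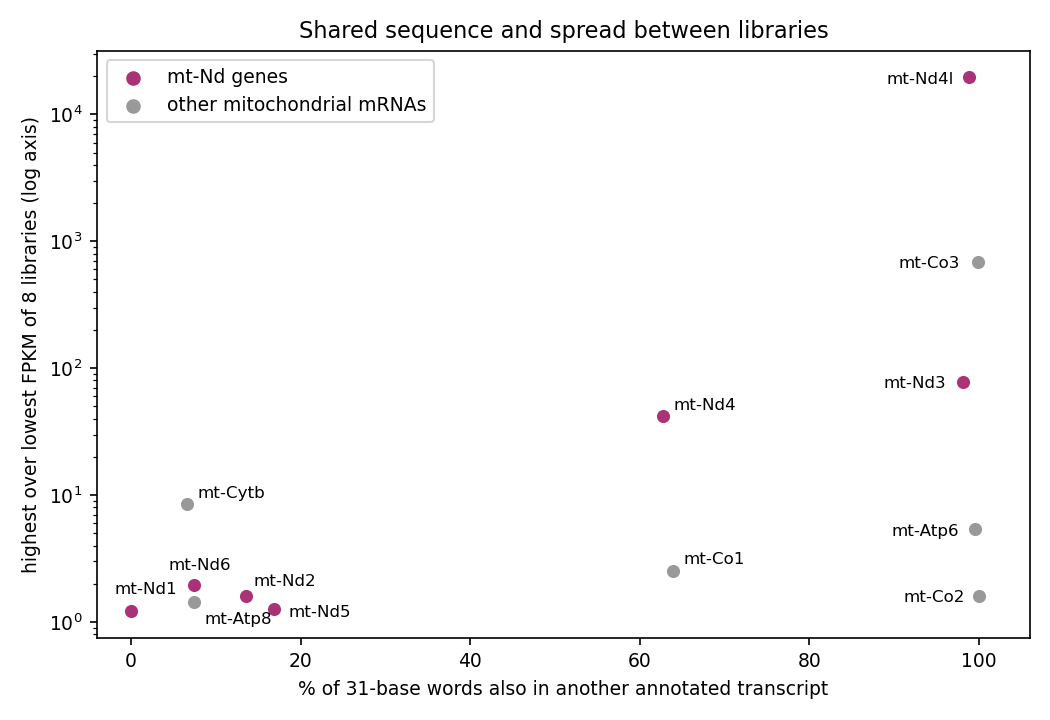
Each point is 1 of the 13 mitochondrial mRNAs, with the percent of its 31-base words found in another annotated transcript on the horizontal axis and the highest over the lowest FPKM of 8 libraries (log axis) on the vertical axis. mt-Nd3, mt-Nd4, mt-Nd4l and mt-Co3 (692 times) lie to the upper right. mt-Nd1, mt-Nd2, mt-Nd5, mt-Nd6 and mt-Atp8 (1.45 times) lie to the lower left. mt-Co1, mt-Co2 and mt-Atp6 combine much shared sequence with spreads of 1.61 to 5.37 times, and mt-Cytb little with 8.51 times.

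Together the 7 genes held 2.95%, 3.18%, 3.01% and 3.25% of the library total in sedentary replicates 1 to 4 and 2.61%, 2.23%, 3.75% and 2.47% in swimming replicates 1 to 4. In 3 swimming libraries the share was below every sedentary one, and in swimming replicate 3 it was above them. The high value there contained 0.658% from mt-Nd4l, and the lowest value, in swimming replicate 2, contained 0.0129% from mt-Nd3. The means were 3.10% ± 0.143 and 2.76% ± 0.676 (SD, n = 4 per group). Of the FPKM of the 13 mitochondrial mRNAs, the 7 genes held 14.2% to 17.0% in sedentary and 13.5% to 22.5% in swimming libraries. The mean of this share was higher in swimming libraries, at 16.7% ± 4.11 against 15.5% ± 1.17 (SD, n = 4 per group), which rested on swimming replicate 3. Without that library the swimming mean was 14.7%, below the sedentary one. As a share of the library total, the difference of -0.33 percentage points was -0.66 without swimming replicate 3 and -0.16 without swimming replicate 2. These values with libraries left out were added after the data were seen.

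**Figure D3:**
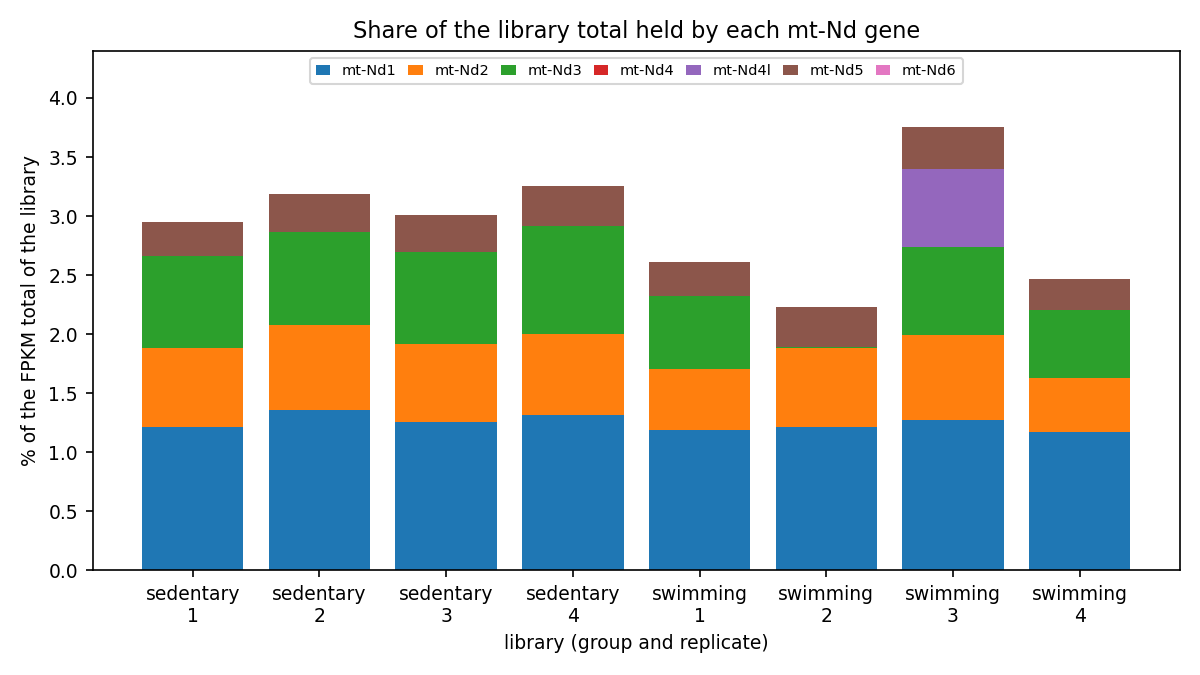
Stacked bars give the percent of the FPKM total of each library held by each of the 7 genes. mt-Nd1 makes up 1.17% to 1.36% in every library, mt-Nd3 is nearly missing from swimming replicate 2 (0.0129%) and mt-Nd4l appears in swimming replicate 3 (0.658%), while mt-Nd4 and mt-Nd6 are too small to be seen.

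Ratios between members of a library do not depend on how the library was scaled. The ratio of mt-Nd2 to mt-Nd1 was 0.547, 0.530, 0.525 and 0.524 in sedentary replicates 1 to 4 and 0.428, 0.546, 0.561 and 0.385 in swimming replicates 1 to 4. The sedentary libraries were close to each other, swimming replicates 2 and 3 were near or above them, and swimming replicates 1 and 4 lay well below. The ratio of mt-Nd3 to mt-Nd1 was between 0.575 and 0.694 in sedentary libraries and 0.523, 0.0106, 0.589 and 0.491 in swimming replicates 1 to 4. That of mt-Nd5 to mt-Nd1 was between 0.235 and 0.254 in sedentary and between 0.228 and 0.275 in swimming libraries. These 3 ratios were chosen after the values were seen and were not tested.

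**Figure D4:**
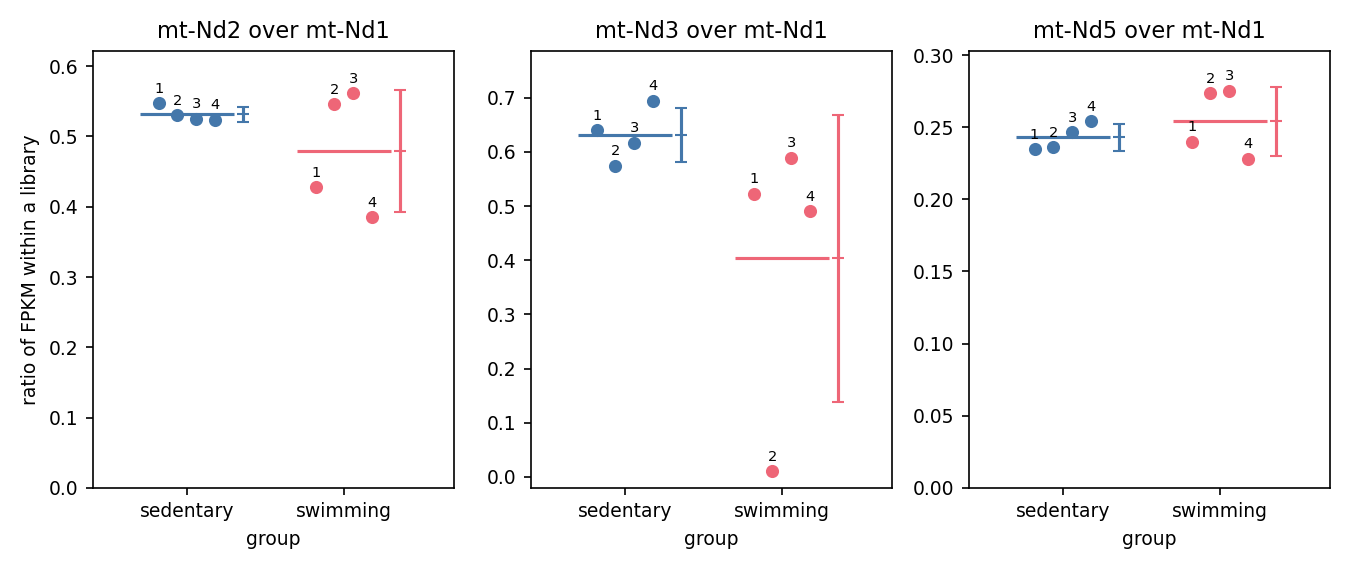
FPKM of mt-Nd2, mt-Nd3 and mt-Nd5 over that of mt-Nd1 within each library (numbers are replicates, lines are group means, bars are SD, n = 4 per group). For mt-Nd2, swimming replicates 1 (0.428) and 4 (0.385) lie below the other 6 libraries, and for mt-Nd3 swimming replicate 2 lies at 0.0106.

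Of the ratios planned for a test, that of mt-Nd1 to mt-Nd5, the first and the last members on the plus strand, was 4.26, 4.24, 4.06 and 3.93 in sedentary replicates 1 to 4 and 4.17, 3.65, 3.63 and 4.38 in swimming replicates 1 to 4. The groups overlapped, and the mean log2 ratio differed by -0.06 (exact two-sided permutation p = 0.400, and 0.643 after Benjamini-Hochberg adjustment over 3 ratios). The ratio of mt-Nd6 to mt-Nd5, neighbours on opposite strands, differed by -0.06 in its mean log2 value (exact permutation p = 0.886, adjusted p = 0.886). The ratio of mt-Nd4l to mt-Nd4 had an exact permutation p of 0.429 (adjusted p = 0.643). The last 2 ratios rest on values near 0 and are given for completeness of the planned comparison. With 70 assignments of libraries to groups the smallest possible p was 0.0286.

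Nuclear genes for complex I gave a reference for the mt-Nd genes. Of 36 nuclear subunit genes 33 were tested, and 0 were called in either direction. The log2 fold change was negative for 29 of the 33, where 41.3% of all genes tested were negative. The median log2 fold change was -0.13 against 0.03 for all genes tested. Over the alternatives it lay between -0.20 (without sedentary replicate 1) and -0.07 (with the columns rescaled to 1 total, where the median of all genes was 0.08). An unadjusted p below 0.05 was found for 7 of the 33, all with lower means, where 2.43% of all genes tested were lower and 4.93% higher at that threshold. Ndufb11, a subunit of the membrane arm, had 46.8 ± 9.98 against 28.2 ± 9.38 FPKM, and Ndufab1, the mitochondrial acyl carrier protein that is also a complex I subunit, had 52.3 ± 6.70 against 42.7 ± 3.67 FPKM (SD, n = 4 per group, limma adjusted p = 0.608 and 0.657). Ndufc2 and Ndufb3 had the smallest p of the list, with log2 fold changes of -0.19 and -0.18. The summed FPKM of mt-Nd1, mt-Nd2 and mt-Nd5 was between 1.75 and 1.997 times that of the nuclear subunits in sedentary and 1.71, 1.71, 2.16 and 1.47 times in swimming replicates 1 to 4. Of 17 tested assembly factors of complex I, 11 had negative log2 fold changes, beside 41.3% of all genes tested, and 0 were called. Their median log2 fold change was -0.04, and it was -0.02 without swimming replicate 2 or 3. With the columns rescaled to 1 total it was 0.01, where the median of all genes was 0.08. Ndufaf1, an early assembly factor, had the smallest p, at 19.6 ± 1.29 against 18.0 ± 1.082 FPKM, and Tmem126b, Tmem186 and Tmem70 followed with log2 fold changes of 0.08, -0.16 and -0.42.

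**Figure D5:**
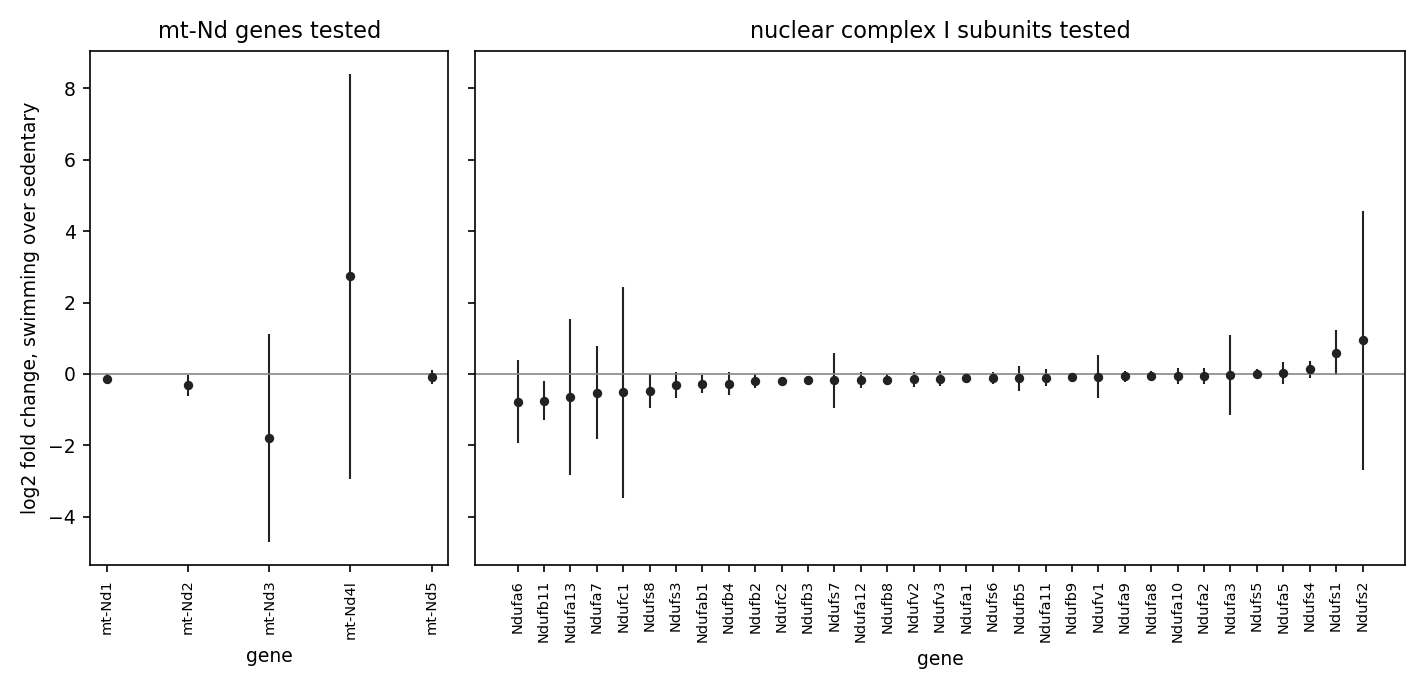
Log2 fold changes (swimming over sedentary, n = 4 per group) with 95% intervals from limma, for the 5 mt-Nd genes tested (left) and 33 nuclear complex I subunit genes tested (right), on the same vertical axis. The points of mt-Nd1 (-0.14), mt-Nd2 (-0.31) and mt-Nd5 (-0.08) lie among those of the nuclear subunits, and the intervals of mt-Nd3 and mt-Nd4l are wide. Intervals are for single genes and are not adjusted.

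The 6 other mitochondrial mRNAs were tested too, with 0 called, 2 lower and 4 higher means and a median log2 fold change of 0.04, which lay between -0.15 (without swimming replicate 2) and 0.21 over the alternatives. Nuclear genes for the making of mitochondrial RNA were also not called. Of 15 tested genes of mitochondrial transcription and replication, 7 had negative and 8 positive log2 fold changes, where 41.3% of all genes tested were negative. Their median log2 fold change was 0.01, and it was -0.09 without sedentary replicate 3 and -0.03 with quantile normalization. With the columns rescaled to 1 total it was 0.05, where the median of all genes was 0.08. Mterf3, a negative regulator of mitochondrial transcription, had 7.32 ± 0.470 against 6.06 ± 0.426 FPKM (log2 fold change -0.25, limma adjusted p = 0.597), and Tfam, which packages mitochondrial DNA and starts transcription, had 8.97 ± 0.440 against 8.23 ± 0.572 FPKM (SD, n = 4 per group). Mterf4, which acts on the mitochondrial ribosome, and Ssbp1, which binds single-stranded mitochondrial DNA, had log2 fold changes of -0.22 and 0.21. Of 22 tested genes of RNA cleavage, stability and decay, 17 had negative log2 fold changes, beside 41.3% of all genes tested, and 0 were called. The median log2 fold change was -0.06, and it was -0.02 without sedentary replicate 3 and -0.04 without swimming replicate 3. With the columns rescaled to 1 total it was -0.0029, where the median of all genes was 0.08. Grsf1, a protein of mitochondrial RNA granules that binds G-rich RNA such as that of mt-Nd6, had 43.3 ± 0.967 against 36.6 ± 2.95 FPKM (log2 fold change -0.24, limma adjusted p = 0.559). Fastk, a factor known to be needed for mt-Nd6 mRNA, had 0.735 ± 0.325 against 0.336 ± 0.193 FPKM, and Fastkd5 and Ptcd1, both RNA-processing factors, had log2 fold changes of -0.11 and 0.19.

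Likeness to the members was described by Pearson's r over the 8 libraries, which share their scaling. The search covered the 11674 genes tested, apart from the members. In a search of that size over 8 libraries, high values of r can arise without any relation between the genes. The mean log2 value of the 7 genes was most like that of Ralgps1 (r = 0.94), Tcf12 (0.94), Ints13 (0.91), Pcbp4 (0.90) and Camta2 (0.89), all nuclear genes. In this mean swimming replicate 2 was low in mt-Nd3 and swimming replicate 3 high in mt-Nd4l. For the mean of mt-Nd1, mt-Nd2 and mt-Nd5, a choice made after the values were seen, the genes most like it were 1810055G02Rik (r = 0.97) and, among genes without a provisional name, Il17d (0.95), Nt5dc3 (0.94), Rabep1 (0.94), Phka1 (0.93) and St13 (0.92), with mt-Atp8, an ATP synthase subunit gene, at 0.89 and mt-Co1 at 0.16. The levels of mt-Nd2 and mt-Nd5 followed each other (r = 0.83), and those of mt-Nd1 had r = 0.64 with mt-Nd2 and 0.62 with mt-Nd5.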

How the data were processed

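Heart RNA of the sedentary and swimming groups, with 4 libraries each, was sequenced after depletion of ribosomal RNA and reverse transcription with random hexamers, per the labels' protocols. The deposited values are FPKM per transcript, per the file headers, and the processing notes of the submitters name HISAT2, Salmon 0.8.2, STAR 2.5.1a, featureCounts 1.4.6-p5, Subread and build mm10. Which of these tools made the FPKM values is not stated. Of 51169 rows, 45676 matched GENCODE M21 and were summed to 18137 genes; 5427 rows are assembled transcripts without a gene, and 66 other rows did not match. Absolute depth is unknown. Relative depth came from ratios of values below 0.1 FPKM in genes with 1 transcript (28 pairs of libraries, largest residual 0.0125 on the log2 scale).

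Genes with a mean of at least 0.5 FPKM were fitted in limma 3.58.1 under R 4.3.3, with log2(FPKM + 0.5) as the value (eBayes with trend, two-sided, 8 libraries, no other term) and adjusted by Benjamini-Hochberg over 11674 genes; the scale understates changes of low genes. In 10 simulations of this comparison, 200 of 11674 genes were changed. The fit called 73.8% of the genes changed by 1 and 90.9% of those changed by 2 on the log2 scale. It made 10 false calls on average. These shares are for all changed genes together, and recovery of the mt-Nd genes was not tested separately. In the data the log2 fold change had an SE of 1.25 for mt-Nd3 and 2.45 for mt-Nd4l. Ratios were compared by exact permutation. Sequences were compared with Python 3.11.15 and Biopython 1.88. The members and lists were chosen with earlier results of these data known. Named genes are all members, up to 4 of each list by smallest p, and the 5 most correlated genes, also among nuclear genes without a provisional name. Alternatives covered the pseudocount, filter, scaling, replicate block, weights, variance model, single transcripts and left-out libraries.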

Additional observations from a re-analysis of the deposited data

Results flagged for a closer look

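In the 36 groups of 4 values screened for a library far from the other 3 (gap over range above Dixon's 95% critical value, which chance exceeds in about 1 of 20 groups), 6 were found. Swimming replicate 3 had 1443 FPKM of mt-Nd4l, where the other 7 libraries had at most 0.164. The log2 ratio of mt-Nd4l to mt-Nd4 was 18.3 in the same library. Swimming replicate 2 had 870.7 FPKM of mt-Co3 and 2730 FPKM of mt-Atp6. Sedentary replicate 1 had 1506 FPKM of mt-Atp6. Sedentary replicate 4, the library with liver and adipocyte transcripts, had 475.7 FPKM of mt-Cytb, against 3474 FPKM or more in the others.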

How the results depend on the processing

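With each of 21 alternatives the count of mt-Nd genes called was 0, and so were the counts of the 5 lists around them. The log2 fold change ranged over the alternatives from -0.24 to -0.08 for mt-Nd1 (limma adjusted p 0.519 to 0.871), from -0.52 (without swimming replicates 2 and 3, which hold its highest swimming values) to -0.21 for mt-Nd2 (0.273 to 0.871), from -2.39 to -0.36 for mt-Nd3 (0.399 to 0.876) and from -0.19 to -0.00353 for mt-Nd5 (0.569 to 0.989). For mt-Nd4l it ranged from 2.47 to 3.70 over 19 alternatives; without swimming replicate 3 it did not reach the test. Over all genes 2 were called. The count was 1 with a pseudocount of 0.1 or quantile normalization, 0 with the replicate block, 0 without swimming replicates 2 and 3 (chosen after the values were seen), 6 with transcripts fitted singly, and 0 to 5 with each library left out in turn (4 without sedentary replicate 2 or 3, 1 without sedentary replicate 4 or swimming replicate 1, 0 without swimming replicate 2, 5 without swimming replicate 4). Deviations from the group means correlated by -0.0540, 0.0145, -0.00327 and 0.0234 in the 4 same-numbered pairs, and the block changed no call of a member. Such correlations cannot show whether libraries of the same number were paired by design. The swimming minus sedentary difference in the mean log2 ratio of mt-Nd6 to mt-Nd5 changed sign. It was 0.0686 with a pseudocount of 0.5 and between -0.21 and 0.17 with libraries left out. For mt-Nd4l to mt-Nd4 this difference was between -0.24 and 5.999, and without swimming replicate 3 it was the lowest. The difference in the share of the 7 genes was -0.33 percentage points of the library total (-0.66 to -0.16 with libraries left out) and 1.14 points of the 13 mitochondrial mRNAs (-0.80 to 2.20). It was -0.66 and -0.80 without swimming replicate 3; for the 13 mRNAs, leaving out sedentary replicate 1 gave 0.693, and leaving out swimming replicate 1 or 4 gave 2.01 or 2.20. The cause of these changes was not tested.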
